A study of Mus musculus with 45 samples.

Results

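Interferon-stimulated genes are the genes that cells switch on when they sense an interferon, the family of secreted proteins that warn tissues of viral and other infection. A list of 39 such genes was drawn up by symbol, and a member was any row of the expression table that carried one of these symbols. Of the 39 genes, 37 were found among the 22080 genes of the table, and Isg15 and Gbp6 were not analysed here. By role, the 37 members were 3 Ifit genes, 6 2'-5'-oligoadenylate synthetase (Oas) genes, 5 other antiviral effectors, 5 interferon-inducible GTPases, 3 cytosolic RNA sensors, 3 genes of peptide processing for MHC class I, 4 transcription factors, 7 other induced genes, and Usp18, which removes the ubiquitin-like protein ISG15 from its targets.

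The study asked how Ganoderma lucidum extracts act on mice that eat a high-cholesterol diet, and it measured gene expression on Affymetrix Mouse Gene ST 1.0 arrays of liver, kidney and brain. Groups of 8 male C57BL/6 mice, 7 weeks old, received an AIN-93 diet alone (Control), the same diet with 0.5% cholesterol (HCD), or HCD with 1% of the Gl-1 extract (HCD+Gl-1), 1% of the Gl-2 extract (HCD+Gl-2) or 0.03 g per 100 g of simvastatin (HCD+Sim), and were killed on day 43 after a fast. Gl-1 is a hydroalcoholic extract of fruiting bodies grown on oak sawdust, Gl-2 comes from the same mushroom strain grown with acetylsalicylic acid in the substrate, and simvastatin inhibits HMG-CoA reductase, the rate-limiting enzyme of cholesterol synthesis. Every group except Control thus also ate cholesterol, and no group received an extract or simvastatin without it. Each of the 15 tissue and diet groups had 3 arrays, where pool A was RNA of 4 mice and pool B was RNA of the other 4. The study describes pool C as a mixture of both pools. By that description 3 arrays stand for 2 separate pools and p-values measure a spread that is partly technical. The values of pool C often lay outside those of pools A and B, as given below.

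Type I interferons bind the receptor formed by IFNAR1 and IFNAR2, and signalling through the kinases JAK1 and TYK2 then leads to a complex that contains IRF9 and binds the interferon-stimulated response element (ISRE) in promoters. Interferon gamma acts through its own receptor and through the gamma-activated site (GAS). The Mx, Ifit and Oas genes answer mainly to the first route, and the GTPases, MHC genes and the chemokines Cxcl9 and Cxcl10 answer strongly to the second. In liver, Kupffer cells, hepatocytes and endothelial cells can all express these genes.

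The promoters of 4 members that gave calls against HCD in liver are shown. They were chosen after the differences were seen, and other members with a call and a promoter sequence are not shown. Each window runs from 250 bases before to 49 bases after the first transcribed base and is read on the gene's strand from RefSeq, build GRCm38.p6, and all 4 genes lie on the plus strand. Capitals mark matches to the ISRE core, which reads GAAA, any 2 bases and GAAA, on either strand (TTTC, 2 bases and TTTC on the other), and to the GAS letters TTCNNNGAA. Ifit1, whose protein binds viral RNA, is shown at chr19:34640639-34640938. Gbp2 and Gbp3, guanylate-binding proteins that attack membranes around intracellular microbes, are shown at chr3:142620413-142620712 and chr3:142559794-142560093. A second window of Gbp3, at chr3:142560106-142560405, held no match and is not shown. Igtp, an immunity-related GTPase also called Irgm3, is shown at chr11:58199306-58199605.
Ifit1: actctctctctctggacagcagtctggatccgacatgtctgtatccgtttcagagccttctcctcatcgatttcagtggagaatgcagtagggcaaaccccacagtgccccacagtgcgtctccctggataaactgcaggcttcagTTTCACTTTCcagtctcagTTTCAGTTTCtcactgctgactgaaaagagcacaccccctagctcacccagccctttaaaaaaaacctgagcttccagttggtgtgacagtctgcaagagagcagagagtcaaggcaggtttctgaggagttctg
Gbp2: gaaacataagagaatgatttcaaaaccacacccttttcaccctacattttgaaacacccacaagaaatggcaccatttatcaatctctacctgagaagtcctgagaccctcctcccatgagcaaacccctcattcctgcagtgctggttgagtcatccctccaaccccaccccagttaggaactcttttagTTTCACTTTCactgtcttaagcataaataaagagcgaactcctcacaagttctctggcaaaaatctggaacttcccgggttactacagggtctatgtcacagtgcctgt
Gbp3: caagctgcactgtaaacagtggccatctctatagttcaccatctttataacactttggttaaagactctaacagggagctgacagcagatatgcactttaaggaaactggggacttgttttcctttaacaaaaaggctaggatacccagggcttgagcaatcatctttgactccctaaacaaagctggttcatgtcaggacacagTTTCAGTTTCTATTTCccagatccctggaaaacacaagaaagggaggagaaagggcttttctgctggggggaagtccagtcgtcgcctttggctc
Igtp: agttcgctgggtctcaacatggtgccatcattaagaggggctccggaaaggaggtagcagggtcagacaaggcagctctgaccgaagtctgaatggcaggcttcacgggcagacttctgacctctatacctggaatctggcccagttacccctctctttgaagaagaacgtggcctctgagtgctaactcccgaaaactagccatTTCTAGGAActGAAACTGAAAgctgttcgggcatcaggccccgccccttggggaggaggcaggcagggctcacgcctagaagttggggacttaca

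The ISRE matches of Ifit1 began 104 and 85 bases before the start, the match of Gbp2 began 59 bases before it, and the pair of overlapping matches of Gbp3 began 45 and 39 bases before it. The promoter of Igtp held an ISRE match 34 bases before the start, next to a GAS match that began 45 bases before it. Promoter windows were given for 28 of the 37 members, 34 windows in all, and a gene was counted if any of its windows matched. Of the 28 members, 15 (53.6%) held the ISRE core, against 3.99% of 27025 genes with such a window. The GAS letters were found in 8 of the 28 members (28.6%) and in 9.55% of all genes, and 3 members held both. All 4 GTPases with a window held the ISRE core, and none of the 3 antigen-processing genes did. The windows of Psmb9 and Tap1 cover largely the same bases on opposite strands, so they are not separate sequences. Some members with a call in liver and a window are not shown above. Of these, Oas3, Ifih1 and Cxcl10 held the ISRE core, and Irf7, Irf1 and Tap1 did not. These matches describe letters in a window and not bound sites.

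The arrays were of like quality, with medians of all genes between 6.76 and 6.92 on the log2 scale and correlations within groups between 0.985 and 0.997. For a member, the 3 arrays of one group had a median SD of 0.116 when taken from liver, 0.0871 from kidney and 0.104 from brain. The labelled tissues matched their markers in the Control groups, since albumin (Alb) had a mean log2 level of 13.7 in liver and 7.80 in kidney, uromodulin (Umod) 12.3 in kidney and 5.52 in liver, and the synaptic gene Snap25 13.4 in brain and 6.02 in liver. In the liver HCD+Sim group, the mean log2 level of 7 pancreas acinar markers was 7.66 in pool A and 8.19 in pool B but 6.33 in pool C, and all other liver arrays lay between 6.04 and 6.26. Pool C thus lay below both of the pools that it is described as mixing. The calls of members, and of pathway genes against HCD, in the liver HCD+Sim group are therefore also given with pool C as its only array. The calls of cell markers in that group are not given in this way and rest on all its arrays.

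A gene was called differentially expressed (DE) at an absolute log2 difference over 0.7 with a limma p of at most 0.05 after Benjamini-Hochberg adjustment over all 22080 genes. Since few genes reach that size on these arrays, members past the adjusted p alone are also counted. Over 7 diet comparisons per tissue, 2 members were DE in liver (Mx2 and Gbp2), 1 in kidney (Iigp1) and 0 in brain, and 13 members passed the adjusted p alone in at least 1 comparison. The share of all genes that passed in at least 1 comparison was not counted. These totals thus have no background, and shares of all genes are given per comparison below. Those 13 members gave 29 calls at the adjusted p, of which 9 held in every fit that left out 1 array of the compared groups, 9 held with pools A and B only and 8 held when each tissue was fitted by itself. All comparisons with HCD in a tissue share the same 3 HCD arrays, so an array that was low in HCD moves each of them. All values of genes are log2 levels of 1 probe set, which can be compared between arrays but not between genes. In these bulk tissues, fewer cells of a type and less RNA per cell cannot be told apart.

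In liver, most members were lower in HCD than in Control and most were higher in each treated group than in HCD. With HCD against Control, 0 members were DE (0.245% of all genes were), 2 passed the adjusted p, both lower (0.765% of all genes were lower at that threshold), and 15 of 37 had a limma p under 0.05 without adjustment, against 10.3% of all genes. The median log2 difference of the members was -0.16, with 32 of 37 below 0, and the median over all genes was -0.012. The values of the 2 diets did not overlap for 10 members, of which 9 were lower (8.77% of all genes) and 1 was higher (6.12%).

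The 3 treatments were each compared with HCD in liver. With Gl-1, 1 member was DE and higher (0.0951% of all genes), 3 were higher past the adjusted p (1.48%), the members' median difference was 0.12 and 26 of 37 lay above 0. With Gl-2, 1 member was DE and higher (0.208%), 3 were higher past the adjusted p (0.824%), the median was 0.0896 and 28 of 37 lay above 0. Both extracts thus gave the same number of calls, of which Mx2 and Ifit1 passed with both. With simvastatin, 0 members were DE (0.258%), 4 were higher past the adjusted p (0.833%), 17 had a limma p under 0.05 without adjustment (11.7% of all genes), and 34 of 37 lay above 0, with a median of 0.17 where all genes had 0.035. The share of all genes above 0 was 46.3% with Gl-1, 52.0% with Gl-2 and 62.2% with simvastatin. The arrays of the treated and the HCD group did not overlap for 10 members that were higher and 2 that were lower with Gl-1 (5.88% and 8.83% of all genes), for 8 and 2 with Gl-2 (7.27% and 7.94%) and for 14 and 0 with simvastatin (9.26% and 4.09%).

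**Figure D1:**
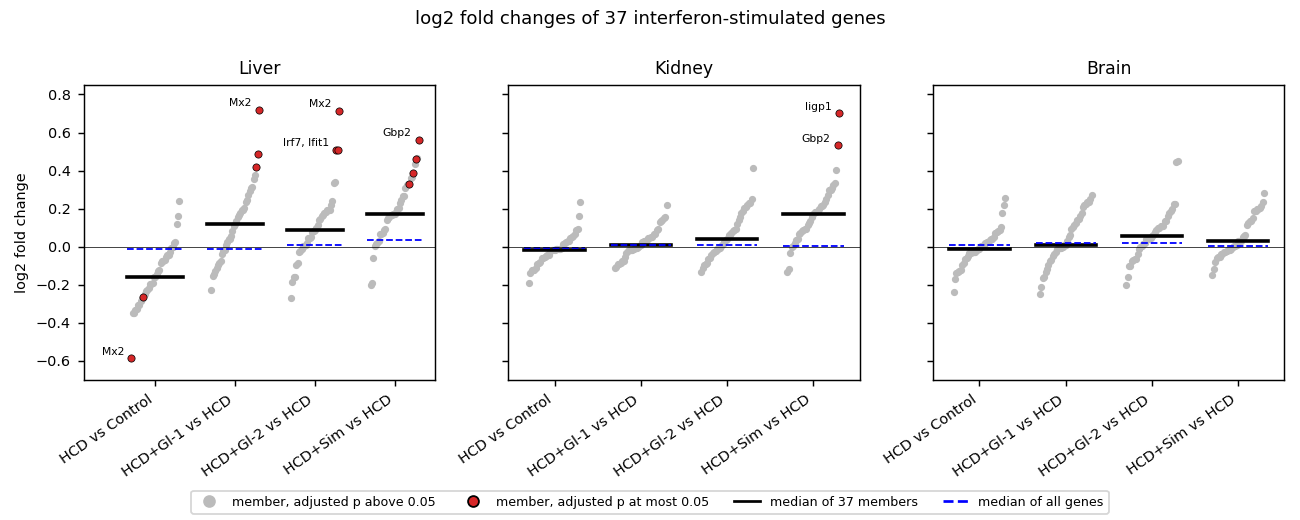
Log2 fold changes of the 37 members in 4 diet comparisons (panels and tissues as labelled), where each point is 1 gene, red points have an adjusted p of at most 0.05, the black line is the members' median and the blue dashed line is the median of all 22080 genes. In liver the members' median was -0.16 for HCD against Control and 0.17 for HCD+Sim against HCD, and no brain point is red.

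Of all members, Mx2 differed most from HCD in liver with both extracts. Mx2, a gene of the dynamin-like Mx GTPases, was measured here as RNA only. Mx2 had log2 levels of 6.22, 6.46 and 6.40 in the Control pools A, B and C and of 5.90, 5.77 and 5.66 in the HCD pools. It was 6.59, 6.33 and 6.56 with Gl-1, 6.66, 6.35 and 6.46 with Gl-2 and 6.20, 5.88 and 6.64 with simvastatin. The HCD arrays were low and overlapped with neither Control nor the extract groups, and among the other 12 liver arrays only pool B of HCD+Sim, at 5.88, reached down to them. Mx2 fell by 1.50-fold in HCD against Control (log2 difference -0.59, SE 0.133, limma adjusted p 0.0125). It rose by 1.65-fold with Gl-1 (log2 0.72, SE 0.133, limma adjusted p 0.00142) and by 1.64-fold with Gl-2 (log2 0.71, adjusted p 0.00137), which are the DE calls of both comparisons. Both values lay close to the limit of 0.7, and without pool C of HCD the log2 difference was 0.66 with Gl-1 and 0.66 with Gl-2. It was 0.67 and 0.69 without pools A and C of Gl-1 and 0.63 without pool A of Gl-2. In each of these the adjusted p stayed under the threshold, while a fit of the liver arrays alone gave adjusted p-values of 0.0727 and 0.0618. The fall against Control was lost without pools B or C of Control or pool C of HCD in turn (log2 -0.57 to -0.53, adjusted p 0.0517 to 0.0877). With simvastatin Mx2 was 0.46 above HCD with an adjusted p of 0.0824 and overlapping values.

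Ifit1 was at 6.50, 6.73 and 6.44 in the HCD pools, 6.92, 6.90 and 7.33 with Gl-1, 7.18, 6.95 and 7.07 with Gl-2 and 7.02, 7.01 and 6.69 in Control. Each extract array lay above each HCD array, while HCD and Control overlapped. Ifit1 rose by 1.40-fold with Gl-1 (log2 0.49, SE 0.128, limma adjusted p 0.0316) and by 1.42-fold with Gl-2 (log2 0.51, adjusted p 0.0248), but from pools A and B alone its log2 difference was 0.29 with Gl-1 and 0.45 with Gl-2. The calls were lost without pools A or C of HCD or pool C of HCD+Gl-1 in turn (log2 0.35 to 0.46, adjusted p 0.0984 to 0.299) for Gl-1 and without pools A or C of HCD or pools A or C of HCD+Gl-2 in turn (log2 0.45 to 0.51, adjusted p 0.0870 to 0.130) for Gl-2. Its sister genes Ifit2 and Ifit3 did not pass in any liver comparison, and the median of the 3 Ifit genes was -0.35 for HCD against Control, 0.355 for Gl-1, 0.34 for Gl-2 and 0.36 for simvastatin against HCD.

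Among the 6 genes of the Oas family, which includes enzymes that make the oligoadenylates that activate RNase L, 1 passed in liver. Oas3 lay at 5.96, 6.25 and 6.35 in HCD and at 6.49, 6.52 and 6.54 with simvastatin. The 3 simvastatin arrays were nearly equal and all above HCD, and Oas3 rose by 1.26-fold (log2 0.33, SE 0.0845, limma adjusted p 0.0404). Ifi27, a small membrane protein gene that interferon alpha induces, lay at 9.41, 9.21 and 9.28 in Control and 9.08, 8.93 and 9.10 in HCD and fell in HCD (log2 difference -0.27, SE 0.0707, limma adjusted p 0.0461). Both values are small. The call of Oas3 was lost without pools A or B of HCD or pools A, B or C of HCD+Sim in turn (log2 0.22 to 0.36, adjusted p 0.0599 to 0.359), and that of Ifi27 without pools A or C of Control or pools A, B or C of HCD in turn (log2 -0.30 to -0.21, adjusted p 0.0612 to 0.252).

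Of the 4 transcription factors, Irf7, the regulator that amplifies type I interferon transcription, passed with Gl-2. It lay at 8.82, 8.39 and 8.22 in HCD, 9.13, 8.97 and 8.86 with Gl-2, 8.84, 8.90 and 8.26 with Gl-1 and 9.03, 8.93 and 8.77 with simvastatin. The Gl-2 arrays were all above the HCD arrays, and the Gl-1 and simvastatin arrays overlapped with HCD, whose pool A was its highest. Irf7 rose by 1.42-fold with Gl-2 (log2 0.51, SE 0.132, limma adjusted p 0.0324). The call was lost without pools B or C of HCD or pools A or B of HCD+Gl-2 in turn (log2 0.38 to 0.52, adjusted p 0.0625 to 0.233). Stat2 and Irf9, which act in the complex that binds the ISRE, did not pass in any diet comparison.

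**Figure D2:**
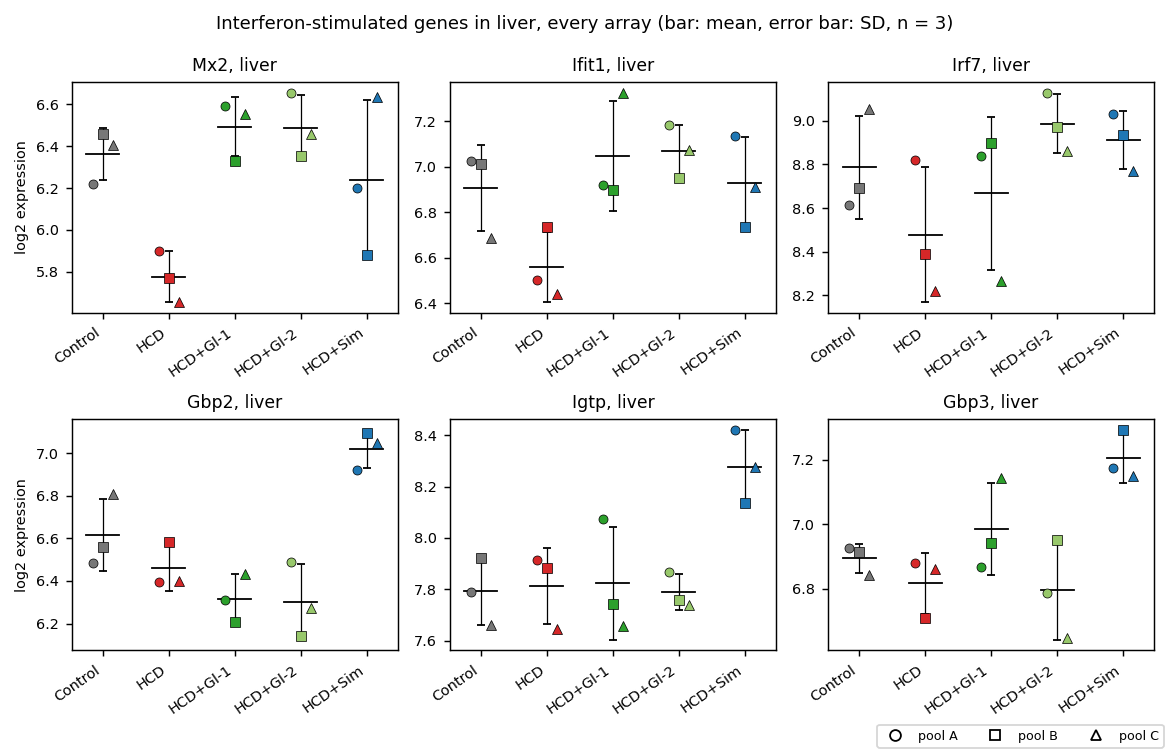
Log2 levels of Mx2, Ifit1, Irf7, Gbp2, Igtp and Gbp3 in liver, 1 panel per gene, with a point for each array of the 5 diets, a bar at the mean of 3 arrays and an error bar of 1 SD. The HCD arrays of Mx2 lie between 5.66 and 5.90, below all Control and extract arrays, and the HCD+Sim arrays of Gbp2 lie between 6.92 and 7.09, above all 12 other liver arrays.

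Of the 5 GTPases, Gbp2, Igtp and Gbp3 passed in liver with simvastatin and Iigp1 with Gl-1, each against HCD. Gbp2 had log2 levels of 6.39, 6.58 and 6.40 in HCD and 6.92, 7.09 and 7.05 with simvastatin, and of 6.31, 6.21 and 6.43 with Gl-1 and 6.49, 6.14 and 6.27 with Gl-2. The 3 simvastatin arrays were above all other liver arrays, and Gbp2 rose by 1.48-fold against HCD (log2 0.56, SE 0.104, limma adjusted p 0.00196). Igtp lay at 7.92, 7.88 and 7.65 in HCD and 8.42, 8.13 and 8.28 with simvastatin and rose by 1.38-fold (log2 0.46, SE 0.0963, limma adjusted p 0.00760). Gbp3 lay at 6.88, 6.71 and 6.86 in HCD and 7.17, 7.29 and 7.15 with simvastatin and rose by 1.31-fold (log2 0.39, SE 0.0854, limma adjusted p 0.0121). In none of these 3 genes did the HCD and simvastatin arrays overlap. The simvastatin difference of Gbp2 passed the adjusted p in all 6 fits that left out 1 array, while that of Igtp was lost without pool C of HCD (log2 0.38, adjusted p 0.0803) and that of Gbp3 without pool B of HCD or pool B of HCD+Sim in turn (log2 0.33 to 0.35, adjusted p 0.0766 to 0.0884). Fitted on the liver arrays alone, the adjusted p was 0.0867 for Gbp2, 0.224 for Igtp and 0.223 for Gbp3.

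Iigp1, an immunity-related GTPase that disrupts vacuoles holding parasites, passed in liver with Gl-1. Its log2 levels were 10.23, 10.28 and 10.02 in HCD, 10.48, 10.36 and 10.95 with Gl-1, 10.34, 10.08 and 10.25 with Gl-2 and 10.40, 10.25 and 10.14 with simvastatin. The Gl-1 arrays were above the HCD arrays, led by pool C, and Iigp1 rose by 1.34-fold (log2 0.42, SE 0.116, limma adjusted p 0.0430). From pools A and B alone the difference was 0.16 with an adjusted p of 0.607, and the call was lost without pools A, B or C of HCD or pools A or C of HCD+Gl-1 in turn (log2 0.24 to 0.48, adjusted p 0.0539 to 0.431).

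The extracts and simvastatin were also compared directly in liver. Gl-1 against simvastatin gave 1 DE member, which was lower (0.195% of all genes), with 5 lower past the adjusted p (2.48%) and 1 higher (1.6%). Gl-2 against simvastatin gave 1 DE member, also lower (0.163%), with 3 lower past the adjusted p (0.928%). The DE member was Gbp2 in both, which was 1.63-fold lower with Gl-1 (log2 -0.70, limma adjusted p 7.56e-05) and 1.65-fold lower with Gl-2 (log2 -0.72, limma adjusted p 6.55e-05). Igtp, at 8.07, 7.74 and 7.66 with Gl-1 and 7.87, 7.76 and 7.74 with Gl-2, was lower than with simvastatin in both comparisons, with log2 differences of -0.45 (adjusted p 0.00554) and -0.49 (adjusted p 0.00403). Gbp3, at 6.79, 6.95 and 6.65 with Gl-2, was lower than with simvastatin by a log2 difference of -0.41 (adjusted p 0.00632). The size of the Gbp2 difference fell below 0.7 without pool B of Gl-1 (-0.65) or pool B (-0.67) or C (-0.69) of HCD+Sim in the first comparison and without pool B of Gl-2 (-0.64) or of HCD+Sim (-0.68) in the second, with the adjusted p under the threshold each time. The call of Igtp against Gl-1 was lost without pool C of HCD+Gl-1 (log2 -0.37, adjusted p 0.0690) and that of Gbp3 without pool C of HCD+Gl-2 or pool B of HCD+Sim in turn (log2 -0.37 to -0.34, adjusted p 0.0549 to 0.0714). The Gbp2 and Igtp values of both extracts overlapped with HCD and lay below every simvastatin array. With pool C as the only HCD+Sim array, Gbp2 was at -0.73 against Gl-1 (limma adjusted p 0.00495) and -0.75 against Gl-2 (adjusted p 0.00739) and remained DE. Igtp kept its call against Gl-1 (-0.45, adjusted p 0.0402) and lost it against Gl-2 (-0.49, adjusted p 0.0506), and Gbp3 lost its call (-0.36, adjusted p 0.121).

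The other members that differed between Gl-1 and simvastatin in liver belong to several roles. Irf1, a transcription factor that interferon gamma induces, lay at 7.46, 7.40 and 6.98 with Gl-1 and 7.83, 7.61 and 7.66 with simvastatin (log2 difference -0.42, limma adjusted p 0.0108). Tap1, which moves peptides into the endoplasmic reticulum for MHC class I, lay at 8.35, 8.44 and 8.20 and 8.60, 8.45 and 8.87 (log2 -0.31, limma adjusted p 0.0387). Cxcl10, a chemokine that draws T cells, lay at 6.87, 6.68 and 6.86 and 7.60, 7.10 and 7.02 (log2 -0.44, limma adjusted p 0.0436). These 3 genes were lower on every Gl-1 array than on every simvastatin array. Ifih1, the cytosolic sensor of long double-stranded RNA also called MDA5, went the other way, at 8.97, 8.84 and 9.19 with Gl-1 and 8.80, 8.85 and 8.25 with simvastatin, and was 0.37 higher with Gl-1 (limma adjusted p 0.0308). Pool B of simvastatin lay just above pool B of Gl-1 for Ifih1, and pool C of simvastatin was far below the rest. These 4 calls were lost without pool C of HCD+Gl-1 (log2 -0.27, adjusted p 0.162) for Irf1, without pools A or C of HCD+Gl-1 or pool C of HCD+Sim in turn (log2 -0.32 to -0.20, adjusted p 0.0891 to 0.278) for Tap1, without pools A, B or C of HCD+Gl-1 or pool A of HCD+Sim in turn (log2 -0.47 to -0.26, adjusted p 0.0776 to 0.204) for Cxcl10 and without pools A or C of HCD+Gl-1 or pool C of HCD+Sim in turn (log2 0.18 to 0.38, adjusted p 0.0737 to 0.325) for Ifih1. With pool C as the only HCD+Sim array, Irf1 was at -0.38 (limma adjusted p 0.0897) and Cxcl10 at -0.21 (adjusted p 0.417), so both calls were lost. In the same fit Tap1 was at -0.54 (adjusted p 0.00781), Ifih1 was at 0.75 and became DE (adjusted p 0.000188), and Irgm1, an immunity-related GTPase, passed at 0.61 (adjusted p 0.0204). Against Gl-2, Tap1 passed there as well (-0.45, adjusted p 0.0355).

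Gl-2 differed from Gl-1 in 0 members at the DE threshold (0.172% of all genes), while 9 of 37 had a limma p under 0.05 without adjustment, against 19.8% of all genes. Only Ifih1 passed the adjusted p (2.51% of all genes were lower), at 8.71, 8.66 and 8.47 with Gl-2, a log2 difference of -0.39 (limma adjusted p 0.0224), and no array of one extract overlapped with the other, but the call was lost without pools A or C of HCD+Gl-1 or pool C of HCD+Gl-2 in turn (log2 -0.40 to -0.29, adjusted p 0.0606 to 0.244). Iigp1 was at -0.37 in the same comparison with an adjusted p of 0.0605.

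Markers of other liver cells were read beside these genes. With HCD against Control, 0 of 6 Kupffer cell markers and 0 of 5 macrophage markers lay above 0, and the Kupffer list had array means of 8.59 to 8.65 in Control and 8.30 to 8.32 in HCD. One of them, the scavenger receptor gene Marco, fell, with a log2 difference of -0.64 (limma adjusted p 0.000837). With either extract against HCD, all 6 Kupffer and all 5 macrophage markers lay above 0, and the Kupffer list reached 8.43 to 8.64 with Gl-1 and 8.34 to 8.54 with Gl-2. With simvastatin it reached 8.38 to 8.70 and the macrophage list 8.44 to 8.79, against 8.24 to 8.32 in HCD. Marco rose with simvastatin against HCD (log2 0.54, limma adjusted p 0.00888), as did the T cell gene Cd3g (log2 0.53, adjusted p 0.00284), and the 10 T and NK cell markers had array means of 5.54 to 5.76 with simvastatin and 5.50 to 5.58 in HCD. With Gl-1 against HCD, the Kupffer list gene C6 rose (log2 0.41, limma adjusted p 0.0140) and Mzb1 of the B and plasma cell list fell (log2 -0.36, adjusted p 0.0259). Lower with Gl-1 than with simvastatin were Csf1r of the macrophage list, Cd3g, the B and plasma cell genes Cd79a and Mzb1 and the endothelial gene Cdh5, with log2 differences of -0.30, -0.38, -0.57, -0.33 and -0.31 and limma adjusted p-values from 0.00985 to 0.0393. The part of these cells in the levels of the members was not tested.

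**Figure D3:**
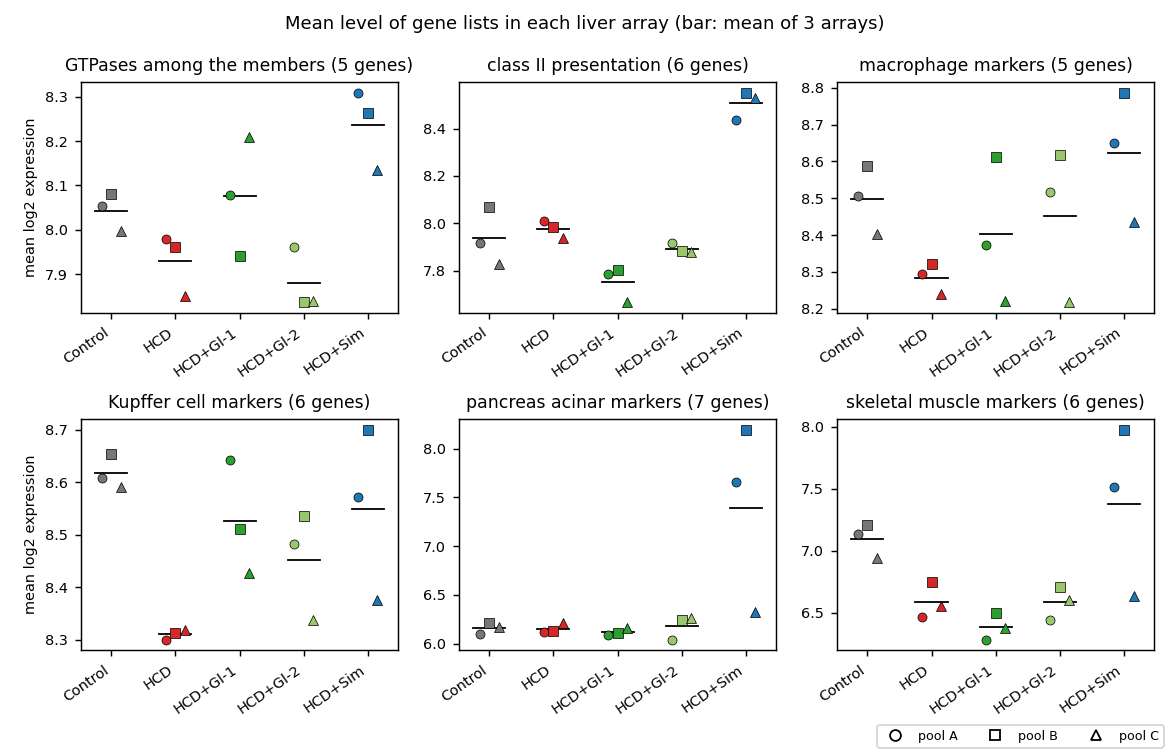
Mean log2 level per liver array of the 5 GTPases, 6 MHC class II genes and the macrophage, Kupffer cell, pancreas acinar and skeletal muscle marker lists, with a point for each array of the 5 diets. Pancreas markers are high in pools A and B of HCD+Sim (7.66 and 8.19) and at 6.33 in pool C, while the GTPase mean is between 8.13 and 8.31 in all 3 HCD+Sim arrays and between 7.85 and 7.98 in HCD.

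Pancreas and muscle markers rose with simvastatin in the same livers, and muscle markers also differed between HCD and Control. The 6 skeletal muscle markers had array means of 6.94 to 7.21 in Control and 6.47 to 6.75 in HCD, without overlap, and Myh1, a myosin heavy chain gene, was DE and lower in HCD (log2 -1.03, limma adjusted p 0.0134). The part of muscle RNA in the members' levels was not tested. Of 7 pancreas acinar markers, 6 were DE and higher in HCD+Sim than in HCD, and of 6 skeletal muscle markers 3 were DE and 5 passed the adjusted p, with muscle array means of 7.52, 7.98 and 6.64 in pools A, B and C of HCD+Sim. Pool C of HCD+Sim, which carried little of either, was at 7.05 for Gbp2, 8.28 for Igtp and 7.15 for Gbp3. With pool C as the only HCD+Sim array, Gbp2 was 0.59 above HCD (limma adjusted p 0.0268), Igtp 0.46 (adjusted p 0.0520), Gbp3 0.33 (adjusted p 0.128) and Oas3 0.35 (adjusted p 0.106), so the differences were about as large while only that of Gbp2 kept its call. In that fit 4 members passed the adjusted p. Beside Gbp2 they were Mx2, at 0.86 (adjusted p 0.00327) and DE, Tap1, at 0.46 (adjusted p 0.0281), and Ifih1, which was lower, at -0.44 (adjusted p 0.0278). The members' median was 0.21 with 30 of 37 above 0, and the median of all genes was 0.10. The single array is assumed there to vary like the other groups.

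In kidney, members passed the adjusted p only in comparisons with simvastatin. In the 4 others at most 0.996% of all genes passed, so a count of 0 members does not show that none differed. HCD against Control gave 0 members DE (0.0408% of all genes) and 0 past the adjusted p (0.131%), with 1 of 37 at a limma p under 0.05 without adjustment (4.47% of all genes). Gl-1 against HCD gave 0 DE (0.131%) and 0 past the adjusted p (0.267%), with 2 at an unadjusted limma p under 0.05 (4.00%), and Gl-2 against HCD gave 0 DE (0.335%) and 0 past the adjusted p (0.996%), with 4 (8.97%). Gl-2 against Gl-1 gave 0 DE (0.181%) and 0 past the adjusted p (0.394%), with 1 (6.66%). Ifit3 was the nearest to passing, at 0.41 with Gl-2 against HCD (limma adjusted p 0.0938). The members' median log2 difference lay between -0.02 and 0.04 in these 4 comparisons.

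With simvastatin against HCD in kidney, 1 member was DE and higher (0.0272% of all genes), 2 were higher past the adjusted p (0.0634%) and 34 of 37 lay above 0, where 51.3% of all genes did. The median was 0.17 for the members and 0.0034 for all genes, and the values of the 2 diets did not overlap for 15 members, all higher (10.0% of all genes). The 5 GTPases were among these 15, with log2 differences from 0.27 to 0.70.

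Iigp1 was the DE member of the kidney. Its log2 levels were 5.73, 5.75 and 5.82 in Control, 6.14, 5.85 and 6.00 in HCD, 5.77, 6.06 and 5.84 with Gl-1 and 5.76, 5.82 and 6.02 with Gl-2, and 6.67, 6.76 and 6.67 with simvastatin. The 3 simvastatin arrays stood more than 0.5 above all 12 others. Each HCD array lay above each Control array, and both extract groups overlapped with HCD. Iigp1 rose by 1.63-fold with simvastatin against HCD (log2 0.70, SE 0.116, limma adjusted p 0.000415). It was 1.76-fold lower with Gl-1 than with simvastatin (log2 -0.81, limma adjusted p 0.000199) and 1.78-fold lower with Gl-2 (log2 -0.83, limma adjusted p 1.34e-05). The value against HCD lies at the limit of 0.7, and it was 0.63 without pool B of HCD and 0.67 without pool B of HCD+Sim, with the adjusted p under the threshold in all 6 fits that left out 1 array.

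Gbp2 lay at 6.48, 6.59 and 6.64 in the HCD kidneys and 7.18, 7.17 and 6.97 with simvastatin and rose by 1.45-fold (log2 0.53, SE 0.104, limma adjusted p 0.00498). Each simvastatin array was above every other kidney array, and the call was lost without pool A of HCD or pools A or B of HCD+Sim in turn (log2 0.49 to 0.50, adjusted p 0.0666 to 0.0812). Gl-1 against simvastatin gave 1 DE member, lower (0.0317% of all genes), and 2 lower past the adjusted p (0.0861%), which were Iigp1 and Gbp2, the latter at -0.53 (limma adjusted p 0.0144). Gl-2 against simvastatin gave 1 DE member, lower (0.0362%), and 3 lower past the adjusted p (0.326%), with Gbp2 at -0.50 (adjusted p 0.00966) and Igtp at -0.38 (adjusted p 0.0461). Igtp lay at 6.71, 6.73 and 6.87 with Gl-2 and 7.02, 7.16 and 7.29 with simvastatin, without overlap. The Igtp call was lost in each of the 6 fits that left out 1 array, and those of Gbp2 were lost without pools A or C of HCD+Gl-1 or pools A or B of HCD+Sim in turn (log2 -0.54 to -0.47, adjusted p 0.0573 to 0.183) for Gl-1 and without pool B of HCD+Gl-2 or pools A or B of HCD+Sim in turn (log2 -0.46 to -0.42, adjusted p 0.0714 to 0.0969) for Gl-2. No marker of the pancreas, muscle, macrophage, Kupffer or other lists passed the adjusted p with simvastatin against HCD in kidney.

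**Figure D4:**
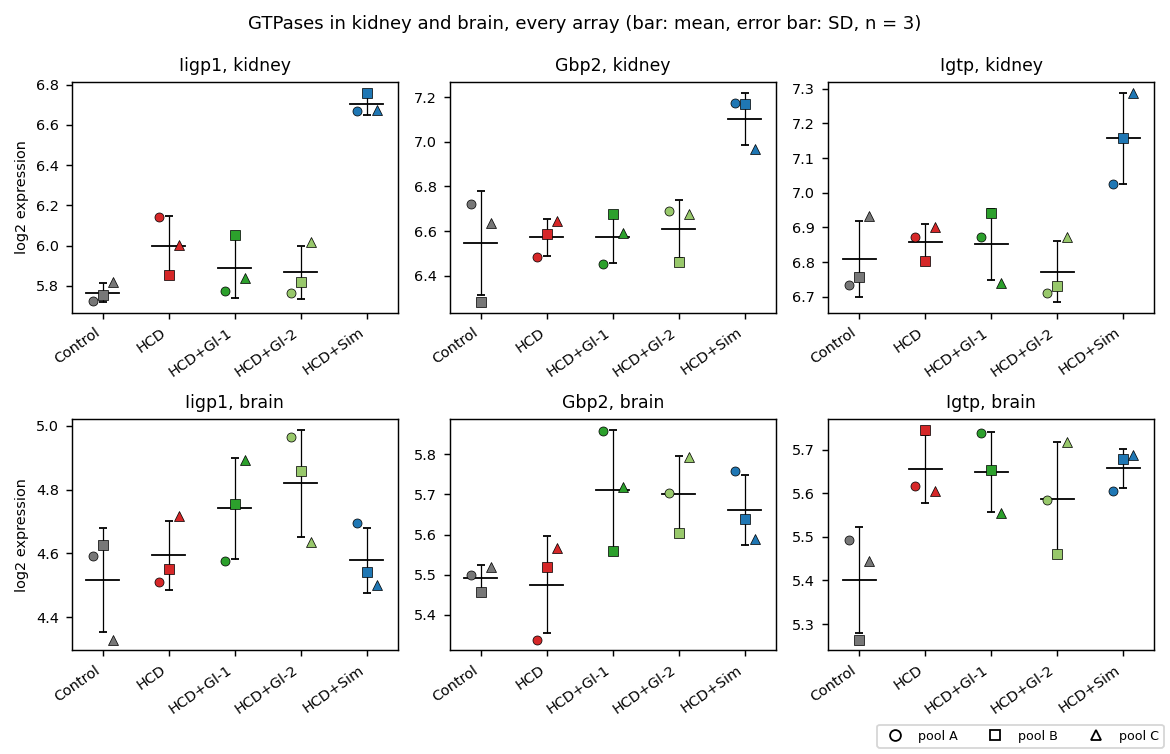
Log2 levels of Iigp1, Gbp2 and Igtp in kidney and brain, with a point for each array of the 5 diets, a bar at the mean of 3 arrays and an error bar of 1 SD. Kidney Iigp1 lies between 6.67 and 6.76 with simvastatin and between 5.73 and 6.14 in the other 12 arrays, while its brain values overlap between diets.

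In brain, 0 members were DE and 0 passed the adjusted p in any of the 7 diet comparisons. The brain gave few calls of any kind. Of all genes, 0.0317% were DE for HCD against Control, 0.00906% for Gl-1, 0.0226% for Gl-2 and 0% for simvastatin against HCD, and 0.00906% for each of Gl-1 against simvastatin, Gl-2 against simvastatin and Gl-2 against Gl-1. The adjusted p alone was passed by 0.0543%, 0.0181%, 0.0362% and 0.0181% of all genes in the first 4 of these and by 0.0453%, 0.0181% and 0.0136% in the last 3. At a limma p under 0.05 without adjustment, 1 of 37 members passed for HCD against Control (6.44% of all genes), 5 for Gl-1 (5.55%), 6 for Gl-2 (6.65%) and 6 for simvastatin (5.53%), each against HCD, and 3, 3 and 1 passed between the treatments (8.10%, 5.52% and 5.49%). The largest differences were those of Ifit3, at 0.45 (limma adjusted p 0.293), and of Ifi44, an interferon-induced gene of little known function, at 0.45 (adjusted p 0.310), both with Gl-2 against HCD. Iigp1 lay at 4.51, 4.55 and 4.72 in the HCD brains and 4.69, 4.54 and 4.50 with simvastatin, with overlapping values.

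Levels between tissues differed far more than levels between diets. Over the 15 arrays of each tissue, 33 of 37 members had their highest mean in liver and 4 in kidney, and 35 had their lowest mean in brain. Liver against kidney gave 19 DE members that were higher and 2 that were lower (6.54% and 9.92% of all genes), liver against brain 31 higher and 0 lower (14.9% and 17.5%), and kidney against brain 17 higher and 0 lower (15.5% and 14.5%). The members' median log2 difference was 0.74 for liver against kidney, 1.33 for liver against brain and 0.62 for kidney against brain, where the medians of all genes were 0.07, 0.15 and 0.07.

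Iigp1 differed the most between tissues, with a mean log2 level of 10.35 ± 0.226 (SD, 15 arrays) in liver, 6.04 ± 0.362 (SD, 15 arrays) in kidney and 4.65 ± 0.168 (SD, 15 arrays) in brain. It was 19.7-fold higher in liver than in kidney and 51.9-fold higher than in brain, with no overlap between tissues. Bst2, or tetherin, which holds budding virus at the cell surface, was at 10.93 ± 0.108 (SD, 15 arrays) in liver, 8.27 ± 0.104 (SD, 15 arrays) in kidney and 7.45 ± 0.104 (SD, 15 arrays) in brain. Rtp4, a chaperone of receptors that interferon induces, was 3.15-fold higher in liver than in kidney and 5.12-fold higher than in brain. Mx2 had a mean of 6.27 ± 0.327 (SD, 15 arrays) in liver, 4.92 ± 0.154 (SD, 15 arrays) in kidney and 4.86 ± 0.136 (SD, 15 arrays) in brain, the last 2 of which overlapped over their arrays. In kidney and brain the single Mx2 values ran from 4.64 to 5.19, below every liver array.

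The 4 members with their highest mean in kidney were Ifi44, Rsad2, Ifit2 and Gbp2. Ifi44 was at 8.60 ± 0.128 (SD, 15 arrays) in kidney and 7.37 ± 0.207 (SD, 15 arrays) in liver, 2.35-fold apart, and Rsad2, or viperin, an enzyme that makes a chain-terminating nucleotide against viruses, was 1.79-fold higher in kidney than in liver. These were the 2 DE members lower in liver than in kidney. Ifit2 in liver differed from brain by a log2 value of -0.02 (limma adjusted p 0.614), within the spread of its arrays, and was the only member that did not pass the adjusted p between liver and brain. In that contrast 88.3% of all genes had a limma p under 0.05 without adjustment. Gbp2 in liver and kidney differed by -0.14 (limma adjusted p 0.00784) with overlapping arrays. Stat2 was the only member with its lowest mean in kidney, -0.19 from brain (limma adjusted p 0.00266). Kupffer markers were also higher in liver, 5 of 6 DE against kidney, as were 3 of 5 macrophage markers.

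**Figure D5:**
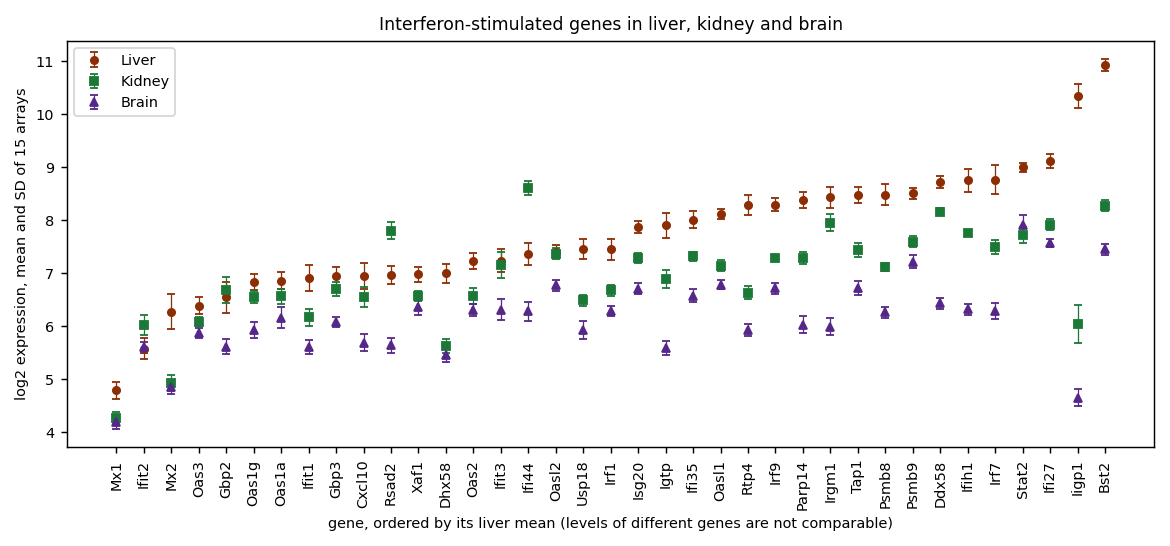
Mean log2 level of each of the 37 members in liver, kidney and brain, with error bars of 1 SD over the 15 arrays of a tissue. Liver holds the highest mean of 33 members, with the widest gap for Iigp1, and Ifi44, Rsad2, Ifit2 and Gbp2 have theirs in kidney.

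The rest of the interferon pathway was read from a list of 126 genes, of which 116 were found. The 18 interferon genes themselves did not pass in any comparison of HCD with Control or of a treatment with HCD in liver, nor did the 14 genes of upstream sensing or the 15 genes of class I presentation. The receptor genes Ifnar1 and Ifngr1 were at 0.02 (limma adjusted p 0.960) and 0.14 (limma adjusted p 0.497) on the log2 scale with simvastatin against HCD in liver. Ifnar2 rose with Gl-1 against HCD in liver (log2 0.25, limma adjusted p 0.0433).

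Of the 6 genes of MHC class II presentation, which interferon gamma induces through the regulator CIITA, 4 rose in liver with simvastatin and 2 of these were DE. In that comparison 0.833% of all genes were higher past the adjusted p and 0.258% were DE in either direction. H2-Ab1, a class II beta chain, lay at 8.77, 8.80 and 8.81 in HCD and 9.49, 9.55 and 9.57 with simvastatin (log2 0.75, limma adjusted p 3.92e-07). Cd74, the invariant chain, lay at 9.80, 9.81 and 9.78 and 10.48, 10.37 and 10.45 (log2 0.64, limma adjusted p 1.38e-05), and H2-Aa and H2-Eb1 rose by 0.70 and 0.50 on the log2 scale. Their 3 simvastatin arrays did not overlap with HCD. With pool C as the only HCD+Sim array, H2-Ab1 was at 0.78 and DE (limma adjusted p 0.000221), Cd74 at 0.66 (adjusted p 0.00197) and H2-Aa at 0.68, no longer DE (adjusted p 0.0378), and H2-Eb1 lost its call (0.43, adjusted p 0.110). Ciita was at 0.27 (limma adjusted p 0.113), and Nlrc5, the like regulator of class I genes, at -0.03 (adjusted p 0.933). With Gl-1 against HCD, Cd74 and H2-Ab1 fell by 0.41 and 0.30 on the log2 scale (limma adjusted p 0.00355 and 0.0396), and with Gl-2 none of the 6 passed. Compared with simvastatin in liver, Cd74 was at -1.05 with Gl-1 (limma adjusted p 4.57e-11) and -0.80 with Gl-2 (adjusted p 8.83e-08). H2-Ab1 was at -1.05 (adjusted p 4.57e-11) and -0.88 (adjusted p 7.75e-09). With pool C as the only HCD+Sim array, Cd74 was at -1.07 and -0.82 and H2-Ab1 at -1.08 and -0.91.

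Of 47 other induced genes on the pathway list, 5 rose in liver with simvastatin (0.833% of all genes were higher past the adjusted p). Tgtp2, a GTPase of the same family as Igtp, lay at 7.79, 7.73 and 7.54 in HCD and 8.48, 8.41 and 8.31 with simvastatin (log2 0.71, limma adjusted p 2.18e-05). Cxcl9, a chemokine that interferon gamma induces, lay at 8.40, 8.63 and 8.31 and 9.26, 9.52 and 8.76 (log2 0.74, limma adjusted p 0.00779) and fell with Gl-1 to 8.10, 7.90 and 7.61 (log2 -0.58, adjusted p 0.0358). Both were DE with simvastatin. Gbp5, Gbp10 and Apol9a also rose with simvastatin, by 0.42, 0.57 and 0.60 on the log2 scale. With pool C as the only HCD+Sim array, Tgtp2 was at 0.62, no longer DE (limma adjusted p 0.0124), and Apol9a at 0.67 (adjusted p 0.0100). The other calls were lost in that fit, with Cxcl9 at 0.32 (adjusted p 0.397), Gbp5 at 0.19 (adjusted p 0.488) and Gbp10 at 0.56 (adjusted p 0.0654). Apol9a, an apolipoprotein L gene, fell in HCD against Control by 0.43 (limma adjusted p 0.0161) and rose with Gl-1 by 0.43 (adjusted p 0.0130) and with Gl-2 by 0.58 (adjusted p 0.000490). Gbp10 and Trim30a also rose with Gl-1 against HCD, by 0.51 and 0.34.

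In the kidney, 3 of the 47 rose with simvastatin against HCD, all of them GTPases (0.0634% of all genes were higher past the adjusted p). Tgtp2 lay at 8.13, 8.04 and 8.03 in HCD and 8.72, 8.77 and 8.82 with simvastatin and was DE (log2 0.70, limma adjusted p 8.12e-06). Gbp7 rose by 0.45 (limma adjusted p 0.00180) and Gbp10 by 0.61 (adjusted p 0.00457). None of the 6 class II genes passed with simvastatin against HCD in kidney, with a median log2 difference of 0.17. Compared with simvastatin in kidney, H2-Ab1 was lower with Gl-1 (log2 -0.40, limma adjusted p 0.0223). With Gl-2 in the same organ, H2-Ab1 (-0.38, adjusted p 0.0128) and Cd74 (-0.40, adjusted p 0.00761) were lower than with simvastatin. Guanylate-binding protein genes lie in clusters of close relatives, so probe sets of one may read RNA of another.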

How the data were processed

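RNA of pooled livers, kidneys and brains was hybridised to 45 arrays, and tissue, diet and pool letter were taken from the labels. The authors corrected the intensities with RMA, quantile normalized them with oligo, reduced a batch effect with ComBat, annotated probe sets with mogene10sttranscriptcluster.db and kept the probe set of highest interquartile range per gene, and what they deposited are log2 values. The sources used here do not name the batches, so no batch could be fitted, and quantile normalization gives every array the same overall spread of values. No other value than these log2 levels was used.

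One linear model of 15 group means was fitted to the 22080 genes with limma 3.58.1 in R 4.3.3, with empirical Bayes moderation and Benjamini-Hochberg adjustment within each of 24 comparisons and of 12 differences between tissues. The thresholds for DE, a log2 difference beyond 0.7 in size and an adjusted p up to 0.05, follow the study's methods. Each p-value given for a gene is from this limma model, since with 3 arrays against 3 an exact two-sided permutation test cannot give a p under 0.1. The scripts were tested on simulated data. Tables, promoter matches and figures were made with Python 3.11.15, pandas 2.3.3, numpy 2.4.6 and matplotlib 3.10.9. All of the 37 members could be named, those that passed a diet comparison with every array's value, and of the 116 pathway genes those that passed, with Ifnar1, Ifngr1, Nlrc5 and Ciita; not every gene that passed is reported here.

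Members, lists and tests were chosen with earlier results of these data known, and a supplementary table of the study lists Mx2, Gbp2 and Iigp1, so their differences are no independent evidence. Adgre1, Trac and Jchain of the marker lists were not used here. The alternatives tried were a separate fit per tissue, trend and robust moderation, a block for the pool letter, a second quantile normalization within tissues, dropping genes under the 25th percentile of mean level, using pools A and B without C, the adjusted p alone, leaving out each array, and, chosen after seeing the data, pool C as the only liver HCD+Sim array.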

Additional observations from a re-analysis of the deposited data

Results flagged for a closer look

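Among 12 differences between tissues in a diet response, 2 members passed the DE thresholds. The response of Mx2 to Gl-1 against HCD was 0.79 higher on the log2 scale in liver than in brain (SE 0.188, limma adjusted p 0.0465), in a contrast in which 0.14% of all genes were DE. The liver pools of HCD lay below those of Gl-1 without overlap, and the brain values of Mx2 all lay between 4.64 and 5.06. These brain values were below 5.79, the 25th percentile of mean level over all genes. Whether a brain response could register at such low levels was not tested. Over 45 fits that each left out 1 array, the difference ran from 0.71 to 0.92 with adjusted p-values from 0.0133 to 0.146, and it passed in 24.

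The response of Iigp1 to simvastatin against HCD was 0.72 higher in kidney than in brain (SE 0.164, limma adjusted p 0.0427), in a contrast in which 0.163% of all genes were DE. Its brain mean of 4.65 also lay below that 25th percentile of 5.79, with the same limit on reading a brain response. Leaving out 1 array at a time gave differences from 0.64 to 0.79 with adjusted p-values from 0.0108 to 0.227, and 25 of 45 fits passed. No member passed in a difference between liver and kidney, so the calls that appear in one of these organs and not in the other are not shown to differ between them.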

How the results depend on the processing

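The DE calls between diets lay near the limit of 0.7, and where a count changed the cause was not tested unless it is named. Fitting each tissue by itself gave 0 for liver Gl-1 against HCD and 0 for Gl-2 against HCD. Pools A and B only gave 0 for these, 0 for liver Gl-2 against simvastatin and 0 for the differences between tissues. Dropping genes under the 25th percentile of mean level leaves 16560 genes and 34 members, and the liver counts of Gl-1 and Gl-2 against HCD were 0 and 0, because Mx2 is among the genes removed. Quantile normalization again within each tissue gave 0 for liver Gl-1 and 0 for liver Gl-2 against simvastatin, since Gbp2 came to -0.64 and -0.68. The adjusted p alone gave in liver 2 for HCD against Control, 3 for Gl-1, 3 for Gl-2 and 4 for simvastatin against HCD, 6 for Gl-1 and 3 for Gl-2 against simvastatin and 1 for Gl-2 against Gl-1. In kidney it gave 2 for simvastatin against HCD, 2 for Gl-1 and 3 for Gl-2 against simvastatin. Between tissues it gave 35 for liver against kidney and 35 for kidney against brain. Most genes differed there, since 78.0% and 78.2% of all genes had a limma p under 0.05 without adjustment. With pool C as the only liver HCD+Sim array, chosen after seeing the data, the counts were 1 for simvastatin against HCD and 2 for Gl-1 against simvastatin.

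Leaving out 1 array at a time gave 0 to 1 in liver for Gl-1 against HCD, Gl-2 against HCD, Gl-1 against simvastatin and Gl-2 against simvastatin and in kidney for simvastatin against HCD, and 0 to 3 for the differences between tissues.

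The pool letters were not taken to pair the arrays, since no label ties a letter to a shared batch across diets and not every same-letter pair correlated above 0.1. Within liver, deviations from the group means had a median correlation of 0.0728 for the same letter (12 of 30 pairs over 0.1) and -0.0414 for different letters (2 of 60), a hint from the data of a letter effect there. With the pool letter as a replicate block, the differences between tissues gave 1 member, no other count moved, and of the 29 named values the fall of Ifi27 lost its call (adjusted p 0.055). No named value changed direction under any setting. The members' median in liver stayed between -0.178 and -0.125 for HCD against Control and between 0.0576 and 0.14 for Gl-1 against HCD. Mx2 lies in the dim part of the arrays' range, and the number of arrays limits the precision of all values.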

Other observations

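Of the pathway genes that passed on the adjusted p and are not members, Irf2 and Ly6e are given here, chosen after their values were seen. Irf2, a factor that competes with IRF1, was 0.32 higher on the log2 scale in HCD than in Control liver (SE 0.067, limma adjusted p 0.00541), and it was the only one of 6 inhibitor genes that passed in the main liver comparisons. Ly6e, a membrane protein gene that interferon induces, was lower with Gl-2 than in HCD kidney (log2 difference -0.57, SE 0.107, limma adjusted p 0.00137), where no member passed.

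Pool C, described as the mixture of pools A and B, lay between them in 162 of 555 cases of a member in a group (29.2%) and in 28.3% of all genes and groups. In most cases it thus lay outside the values of the pools it is described as mixing, and why was not tested. Separate arrays also vary, so a measured mixture need not lie between its parts, and these shares do not test the description.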
